A study of Mus musculus with 6 samples.

Results

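The insulin-like growth factor (IGF) axis was examined in injured neonatal Achilles tendon as a set of 10 genes, made up of both ligands (Igf1, Igf2), both receptors (Igf1r, Igf2r) and 6 binding proteins (Igfbp2 to Igfbp7). They were chosen by pathway membership and found by NCBI Gene identifier. All 10 were among the 18099 genes measured. Bulk RNA sequencing had been run on 3 mice per group, with 1 library from each mouse. The Lysm-Cre; Ampkα1fl/fl mice carried floxed Ampkα1 alleles and Cre recombinase driven from the lysozyme M locus, which deletes in macrophages, monocytes and granulocytes alike. The controls were littermates with the floxed alleles and no Cre. All mice were neonatal, had the Achilles tendon of each leg cut, and gave their repair tissue a week after the operation. The RNA came from whole tissue, so that the cells with the deletion were a part of what was measured.

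IGF1 and IGF2 are small secreted hormones that drive growth and survival through the IGF1 receptor, a tyrosine kinase that signals to PI3K and AKT. The IGF2 receptor, which is also the mannose 6-phosphate receptor of the lysosomal pathway, takes up IGF2 for degradation. The binding proteins hold the ligands in the extracellular space, lengthen their life or keep them from the receptor, and several are cut by proteases that set the ligand free. In tendon, IGF1 is known to promote collagen synthesis by tendon fibroblasts, and macrophages are a further source of it in healing tissue.

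Depth was similar across libraries, from 18076805 to 19479880 estimated reads. For Prkaa1, the gene of the targeted AMPKα1 subunit, the controls gave 740, 688 and 690 reads against 626, 751 and 652 in Lysm-Cre; Ampkα1fl/fl mice, so the groups overlapped in this whole-tissue readout. Lyz2, the gene at the Cre locus, fell from at least 7372 reads in each control to at most 15 in each Lysm-Cre; Ampkα1fl/fl mouse, which matched the group labels. The labels do not say how many alleles carried Cre. The loss of Lyz2 reads came with the Ampkα1 genotype in each of these mice, so effects of either cannot be told apart. The tendon and fibroblast markers were present in every library, the 12 genes together at 126755 to 135561 CPM (reads scaled to a common library size, with library totals corrected for composition by TMM) in the controls and 115760 to 134041 CPM in the Lysm-Cre; Ampkα1fl/fl mice. Markers of other tissues varied widely between libraries. The 12 skeletal muscle markers summed to 239, 726 and 3658 CPM in the controls and 3813, 1283 and 10683 CPM in the Lysm-Cre; Ampkα1fl/fl mice, and Col2a1, a cartilage collagen named after its values were seen, had 2090 CPM in control replicate 2 against 214 to 364 CPM in the other libraries.

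Among the members, the binding protein genes Igfbp6, Igfbp2 and Igfbp5 were lower in each Lysm-Cre; Ampkα1fl/fl mouse than in any control, whereas the ligands and receptors overlapped between the groups. Igfbp6 alone passed an adjusted p of 0.05 in the edgeR quasi-likelihood test over all 14261 genes tested (adjusted over all of them by Benjamini-Hochberg), and 0 members were called higher. This 1 call among 10 members stands beside 0.898% of all genes called, or 0.568% called lower. At an unadjusted p under 0.05, 4 members were lower (Igfbp6, Igfbp2, Igfbp5 and Igf1) and 0 were higher, where 8.55% of all genes were lower and 5.97% higher. The median log2 fold change over the members was -0.11, and -0.002 over all genes tested. All 10 members passed the filter on low counts. A fold change is given throughout as Lysm-Cre; Ampkα1fl/fl over control, on the log2 scale.

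**Figure D1:**
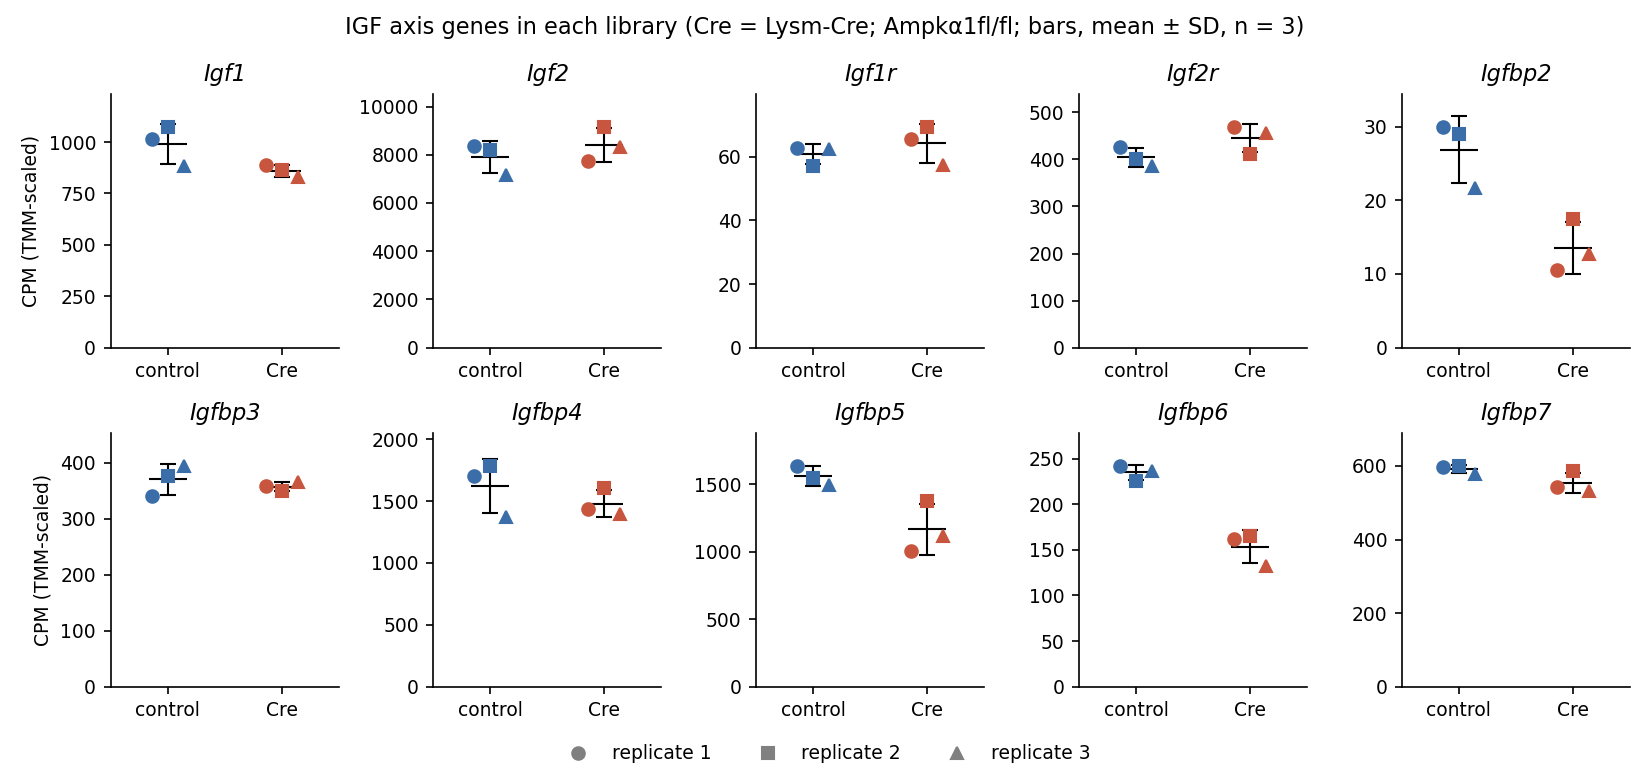
TMM-scaled CPM of the 10 IGF axis genes in each library (vertical axes, each from 0), with controls in blue and Lysm-Cre; Ampkα1fl/fl mice (Cre) in red, marker shape giving the replicate number and bars the mean ± SD of 3 mice. Igfbp2, Igfbp5 and Igfbp6 separate the groups, and the other 7 genes overlap.

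IGFBP6 differs from the other classical binding proteins in its strong preference for IGF2 over IGF1. Igfbp6 (NCBI Gene 16012) lies on chr15:102144186-102149512 of GRCm38.p6, and all of its reads were assigned to 1 RefSeq transcript. It had 242, 226 and 237 CPM in the controls and 162, 166 and 132 CPM in the Lysm-Cre; Ampkα1fl/fl mice. The lowest control stood well above the highest Lysm-Cre; Ampkα1fl/fl mouse, and Lysm-Cre; Ampkα1fl/fl replicate 3 was the lowest library. The group means were 235 ± 8.28 and 153 ± 18.15 CPM (SD, n = 3), which made Igfbp6 34.8% lower (log2 fold change -0.62, 95% interval -0.84 to -0.40, standard error 0.09). Its edgeR adjusted p was 0.0428. A two-sided exact permutation test over the 6 libraries gave p = 0.1, the smallest that 3 against 3 can give. When replicate number entered the edgeR fit as a block, the log2 fold change was -0.62 and the adjusted p was 0.0634, so the call was lost with the same size of difference, and 0.33% of all genes were called. The call was also lost without control replicate 1, 2 or 3 (adjusted p = 0.194, 0.176 and 0.101 in edgeR) and without Lysm-Cre; Ampkα1fl/fl replicate 1 (edgeR adjusted p = 0.143), with a log2 fold change between -0.66 and -0.59 in these 4 fits. In the same order, these fits called 10, 8, 24 and 12 of all genes, against 128 with every library kept.

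IGFBP2 is a binding protein that is abundant in fetal and perinatal tissues. Igfbp2 (NCBI Gene 16008) lies on chr1:72824480-72852474, and had 30.001, 28.958 and 21.7 CPM in the controls against 10.6, 17.5 and 12.6 CPM in the Lysm-Cre; Ampkα1fl/fl mice. The groups did not overlap, but the spread within each was wide, with means of 26.9 ± 4.51 and 13.6 ± 3.53 CPM (SD, n = 3). It had the largest difference of the members, at a log2 fold change of -0.99 (standard error 0.21, 95% interval -1.48 to -0.49), and missed the threshold (edgeR adjusted p = 0.0923, exact permutation p = 0.1).

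IGFBP5 binds to extracellular matrix and is made by many mesenchymal cells. Igfbp5 (NCBI Gene 16011) is the neighbour of Igfbp2, on chr1:72858065-72874865, with 5590 bases between the ends of the genes. It had 1636, 1543 and 1491 CPM in the controls and 1006, 1374 and 1115 CPM in the Lysm-Cre; Ampkα1fl/fl mice. Again each Lysm-Cre; Ampkα1fl/fl mouse was below each control, with replicate 2 nearest to them. Igfbp5 was 25.2% lower (log2 fold change -0.42, standard error 0.12, 95% interval -0.69 to -0.14), and this did not pass the threshold (edgeR adjusted p = 0.166, exact permutation p = 0.1). Non-overlap in the lower direction held for 3 of the 10 members and for 11.4% of all genes tested, and in the higher direction for 0 members and 8.94% of all genes.

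DESeq2, run as an alternative test, called Igfbp2 (adjusted p = 0.000356), Igfbp5 (adjusted p = 0.00793) and Igfbp6 (adjusted p = 7.144e-08), and it called 4.68% of all genes to which it gave an adjusted p. The same 3 members passed in edgeR when Lysm-Cre; Ampkα1fl/fl replicate 2 was left out, with adjusted p of 0.0409, 0.0359 and 0.0409, in a fit that called 1.91% of all genes. In that mouse all 3 genes were the highest of its group, so leaving it out widened each difference. In every other fit that left out 1 library, Igfbp2 and Igfbp5 missed the threshold. Their edgeR adjusted p there ran from 0.106 to 0.308 for Igfbp2 and from 0.2125 to 0.447 for Igfbp5.

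The sequences before the starts of these 3 genes are shown because these members did not overlap between the groups, together with the start that carried most Igf2 reads. They are the 250 bases upstream of the RefSeq start in GRCm38.p6, read 5′ to 3′ on the strand of the gene, with capitals marking TATAAA and GGGCGG, searched on both strands. Igfbp6 is read from chr15:102143936-102144185 (plus strand), Igfbp2 from chr1:72824230-72824479 (plus), Igfbp5 from chr1:72874866-72875115 (minus) and Igf2 from chr7:142657497-142657746 (minus).
Igfbp6: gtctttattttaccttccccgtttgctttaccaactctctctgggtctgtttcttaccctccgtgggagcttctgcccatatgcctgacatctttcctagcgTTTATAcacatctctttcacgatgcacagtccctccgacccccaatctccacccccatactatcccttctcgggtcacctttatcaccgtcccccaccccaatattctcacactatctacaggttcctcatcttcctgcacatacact
Igfbp2: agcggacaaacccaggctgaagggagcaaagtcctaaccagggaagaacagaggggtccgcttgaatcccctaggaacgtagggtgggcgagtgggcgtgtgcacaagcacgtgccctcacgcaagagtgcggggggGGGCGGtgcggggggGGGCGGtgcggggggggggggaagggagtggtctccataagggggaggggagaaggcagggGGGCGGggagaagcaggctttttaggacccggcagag
Igfbp5: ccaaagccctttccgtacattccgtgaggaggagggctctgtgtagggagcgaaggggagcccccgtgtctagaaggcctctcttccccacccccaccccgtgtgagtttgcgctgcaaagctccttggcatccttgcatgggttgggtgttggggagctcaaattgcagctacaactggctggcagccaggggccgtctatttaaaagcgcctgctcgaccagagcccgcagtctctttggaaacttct
Igf2: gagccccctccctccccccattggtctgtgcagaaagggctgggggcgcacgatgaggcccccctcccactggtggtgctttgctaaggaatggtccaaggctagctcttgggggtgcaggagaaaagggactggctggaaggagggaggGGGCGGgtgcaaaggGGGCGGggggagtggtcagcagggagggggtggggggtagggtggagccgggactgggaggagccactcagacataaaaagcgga
Igfbp6 held TATAAA once, on the opposite strand, and no GGGCGG. Igfbp2 held GGGCGG 3 times, Igf2 held it 2 times, and Igfbp5 held neither motif. Among 32851 RefSeq promoters of the same length, 12.4% held TATAAA and 32.7% held GGGCGG. The bases G and C made up 49.6% of the Igfbp6 stretch, 67.2% of that of Igfbp2, 58.8% of that of Igfbp5 and 66.0% of that of Igf2, beside a median of 52.4% over all promoters. Neither motif was held by all of Igfbp2, Igfbp5 and Igfbp6. For Igfbp6 the GENCODE M21 transcript begins further downstream, at 102144362. Igfbp2 has a further RefSeq start, and between 89.5% and 100% of its reads were assigned to the transcript of the start shown.

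The other binding protein genes were close to the control level. IGFBP4, an inhibitor of IGF action that the protease PAPP-A cuts, was encoded by the member with the highest mean CPM after Igf2. Igfbp4 (chr11:99040005-99052655) had 1700, 1787 and 1371 CPM in the controls and 1435, 1607 and 1397 CPM in the Lysm-Cre; Ampkα1fl/fl mice, and control replicate 3 was the lowest of all 6 libraries. Its log2 fold change was -0.13 (95% interval -0.39 to 0.13, edgeR adjusted p = 0.654). Igfbp3, the main carrier of IGFs in blood (chr11:7206086-7215498), had 340, 376 and 394 against 358, 349 and 365 CPM, a log2 fold change of -0.05 (95% interval -0.21 to 0.11, edgeR adjusted p = 0.787). Igfbp7, a relative with low affinity for IGFs that is found in vessels and matrix (chr5:77349240-77408045), had 596, 601 and 578 against 542, 586 and 533 CPM, a log2 fold change of -0.10 (95% interval -0.23 to 0.04, edgeR adjusted p = 0.512). In all 6 binding protein genes the estimate was negative, with a median log2 fold change of -0.27, and the intervals of Igfbp3, Igfbp4 and Igfbp7 include no change.

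**Figure D2:**
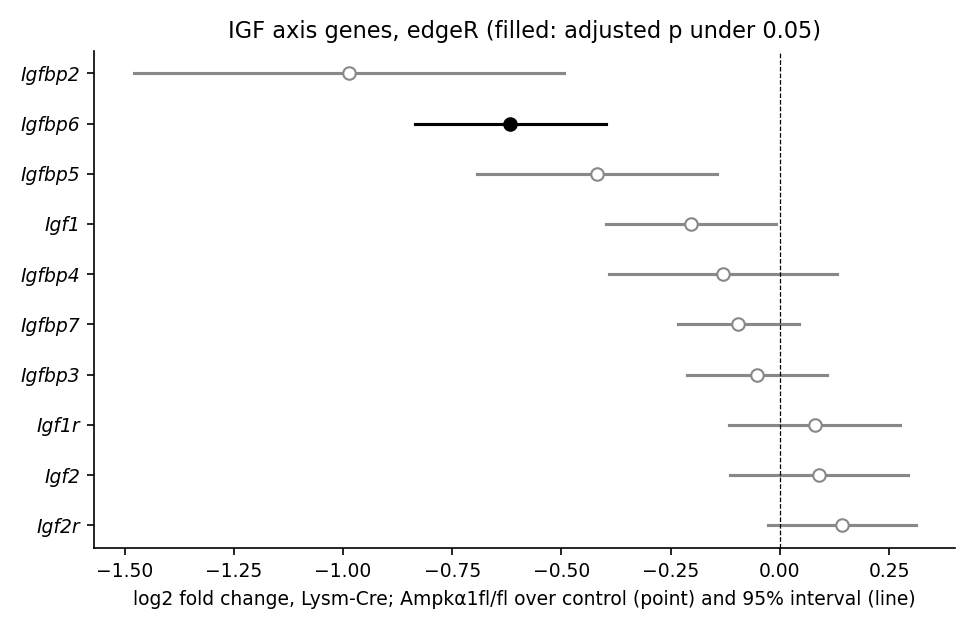
Log2 fold change of each IGF axis gene, Lysm-Cre; Ampkα1fl/fl over control (horizontal axis), with points for the edgeR estimate and lines for its 95% interval from 3 mice per group. Igfbp6 is the filled point at -0.62, and the intervals of Igfbp2, Igfbp5 and Igf1 also lie below 0 without an adjusted p under 0.05.

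The ligands differed less. Igf1 (NCBI Gene 16000, chr10:87858265-87937047) had 1014, 1075 and 883 CPM in the controls and 889, 862 and 828 CPM in the Lysm-Cre; Ampkα1fl/fl mice. Control replicate 3 lay just below the highest Lysm-Cre; Ampkα1fl/fl mouse, so the groups overlapped. The log2 fold change was -0.20 (standard error 0.08, 95% interval -0.40 to -0.01), with an unadjusted p of 0.0423, an edgeR adjusted p of 0.318 and an exact permutation p of 0.2. Igf2 (NCBI Gene 16002, chr7:142650768-142666816), a fetal growth factor expressed from the paternal allele, had 8364, 8211 and 7164 CPM against 7755, 9166 and 8334 CPM. Its log2 fold change was 0.09 (95% interval -0.11 to 0.29, edgeR adjusted p = 0.696), an interval of -7.66% to 22.6% relative to the controls.

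The receptors had positive estimates that did not pass. Igf1r (chr7:67952257-68233668) had 62.7, 57.1 and 62.4 CPM in the controls and 65.6, 69.4 and 57.5 CPM in the Lysm-Cre; Ampkα1fl/fl mice, a log2 fold change of 0.08 (95% interval -0.12 to 0.28, edgeR adjusted p = 0.718). Igf2r (chr17:12682406-12769706) had 426, 401 and 385 against 470, 412 and 455 CPM. Of its Lysm-Cre; Ampkα1fl/fl mice, replicate 2 fell within the control range, and the log2 fold change was 0.14 (95% interval -0.03 to 0.31, edgeR adjusted p = 0.426). RNAs annotated over Igf2r (Airn), Igf2 (Igf2os) and Igf1 (Igf1os) could contribute reads to these genes, because the sources used here do not say whether counting used the strand.

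Per transcript length, Igf2 had the highest level of the axis. In TPM (a share of all transcripts, which the authors scaled for length), Igf2 stood at 5859, 5553 and 5015 in the controls and 5360, 6409 and 5616 in the Lysm-Cre; Ampkα1fl/fl mice. By TPM it ranked between 8 and 13 among all genes in each library. Igfbp4 followed with 1812 ± 223 TPM and Igfbp7 with 1473 ± 14.4 TPM in the controls (SD, n = 3), then Igfbp5 (559 ± 33.8), Igfbp6 (483 ± 25.3), Igfbp3 (346 ± 25.5), Igf1 (293 ± 25.1), Igf2r (93.3 ± 6.05), Igfbp2 (54.7 ± 9.78) and Igf1r (11.1 ± 0.868), all in TPM. In the controls no neighbours in this order overlapped. In the Lysm-Cre; Ampkα1fl/fl mice the order was the same except at Igfbp6 and Igfbp3, which had 318 ± 46.0 and 335 ± 2.54 TPM (SD, n = 3) and overlapped.

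**Figure D3:**
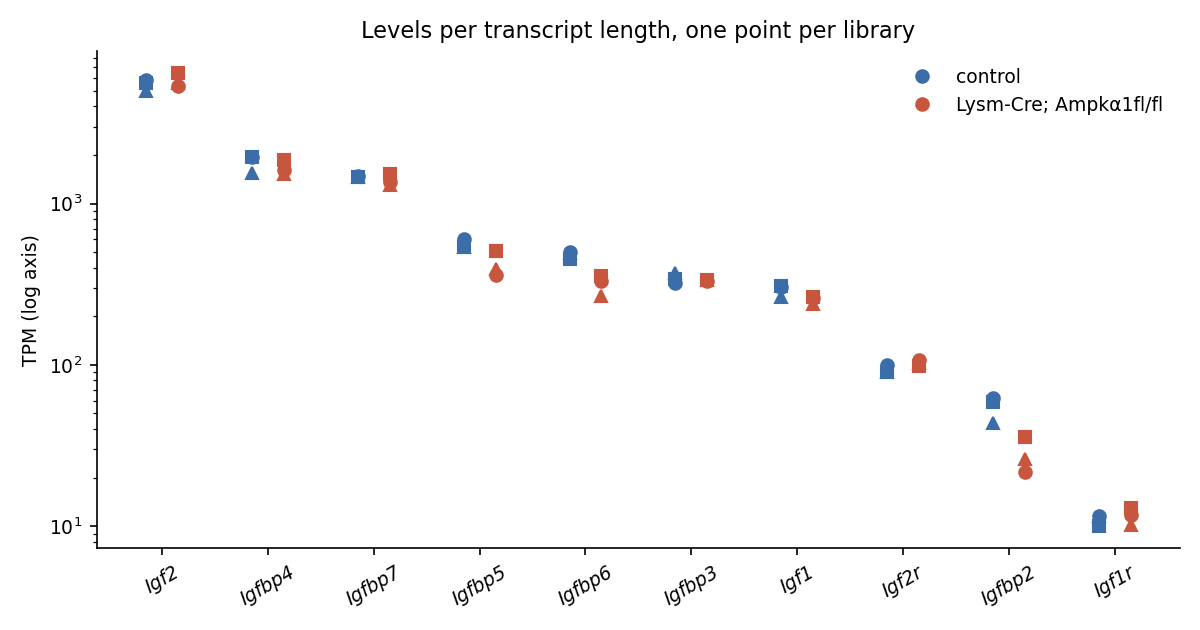
TPM of each IGF axis gene (log axis) with 1 point per library, ordered by the control mean, with controls in blue, Lysm-Cre; Ampkα1fl/fl mice in red, and circle, square and triangle for replicates 1, 2 and 3. Levels run from 5015 to 6409 TPM for Igf2 down to 10.05 to 12.96 TPM for Igf1r, and Igfbp6 drops to the level of Igfbp3 in the Lysm-Cre; Ampkα1fl/fl mice.

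Ratios within a library showed how the balance of the axis compared, and they are given as descriptions, since they are built from the same members. The summed TPM of the 6 binding protein genes was 0.796, 0.821 and 0.847 of the summed TPM of Igf1 and Igf2 in the controls, and 0.713, 0.695 and 0.658 in the Lysm-Cre; Ampkα1fl/fl mice. The groups did not overlap in this ratio, though they did in each of the 2 sums. The binding protein sum was 4470 to 4904 TPM in the controls and 3850 to 4635 TPM in the Lysm-Cre; Ampkα1fl/fl mice. The ligand sum was 5279 to 6164 TPM and 5621 to 6672 TPM. How often ratios of other genes separate the groups was not computed. Igf2 exceeded Igf1 by 19.2, 17.9 and 18.99 times in the controls and by 20.6, 24.3 and 23.5 times in the Lysm-Cre; Ampkα1fl/fl mice, again without overlap. The ratio of Igf2r to Igf1r, 7.81 to 8.95 in the controls and 7.60 to 10.2 in the Lysm-Cre; Ampkα1fl/fl mice, overlapped. Within the binding proteins, Igfbp4 and Igfbp7 together made up most of the TPM. The share of Igfbp6 was 9.44% to 11.05% in the controls and 6.93% to 8.31% in the Lysm-Cre; Ampkα1fl/fl mice, and that of Igfbp2 was 0.976% to 1.27% and 0.541% to 0.775%.

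Igf2 and Igf1 have several start sites, which allowed the reads to be split by transcript as the authors' counting assigned them. Of the Igf2 reads, 80.8% to 84.1% in each library went to transcripts that begin at 142657496 on chromosome 7, the start whose upstream sequence is given above. The start at 142661305 took 6.99% to 10.1%, the one at 142659489 took 4.81% to 6.29%, and the one farthest upstream, at 142666816, took 0.15% to 0.68%. The groups overlapped at each of these starts. The Igf1 reads were spread over 20 RefSeq transcripts, of which the one beginning at 87859068 on chromosome 10 took 40.6% to 43.2% in the controls and 43.3% to 48.3% in the Lysm-Cre; Ampkα1fl/fl mice, groups that did not overlap by a narrow margin and were not tested. The one beginning at 87859258 took 27.8% to 33.4% and 32.5% to 34.1%, which overlapped. Between 15.9% and 28.3% of Igf1 reads, again with overlap, belonged to predicted transcripts for which no GENCODE M21 start was matched.

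Lists of marker genes were read beside the 3 lower binding protein genes, each by its sum in CPM, the edgeR and DESeq2 calls and the gene of smallest edgeR adjusted p. Among all genes tested, 8.55% were lower and 5.97% higher at an unadjusted p under 0.05, and DESeq2 called 4.68% of those with an adjusted p. The 10 macrophage markers summed to 1134 to 1179 CPM in the controls and 714 to 941 CPM in the Lysm-Cre; Ampkα1fl/fl mice, with 9 of 10 estimates negative and 6 lower at an unadjusted p under 0.05. In edgeR 0 of them passed, while DESeq2 called 4 lower. Adgre1, which encodes the macrophage marker F4/80, had a log2 fold change of -0.52 (edgeR adjusted p = 0.0508). None of the 10 was at 0, the fewest reads in a library being 157. The 10 cell division genes summed to 454 to 576 CPM and 279 to 403 CPM, and all 10 were lower at an unadjusted p under 0.05. In edgeR 0 of them passed (Tpx2 was nearest, with an adjusted p of 0.0871), while DESeq2 called 7 lower. The paper had already reported cell division among the categories enriched in its differentially expressed genes. The cell division list was chosen with results of these data known, so it is no independent reading of them. The macrophage and cell division sums separated the groups as Igfbp2, Igfbp5 and Igfbp6 did, and their part in the result was not tested. In whole tissue, fewer cells of a type and less RNA per cell cannot be told apart.

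The remaining lists were mixed or overlapped in their sums. Of the 12 tendon and fibroblast markers 4 estimates were positive and 8 negative, with a median log2 fold change of -0.03, 0 called in edgeR and 2 called lower by DESeq2. At an unadjusted p under 0.05 in edgeR, 3 of them were lower and 0 higher. Most of the sum of this list came from collagen genes, so it says little about the other markers. Dpt, which encodes the matrix protein dermatopontin, was lowest at -0.73 (edgeR adjusted p = 0.0725). All 8 endothelial estimates were negative, with 2 lower at an unadjusted p under 0.05, 0 called in edgeR and 2 called lower by DESeq2. Tek, an endothelial receptor, had -0.33 (edgeR adjusted p = 0.0664). Of 9 cartilage genes tested 5 estimates were positive and 4 negative, with 4 higher and 1 lower at an unadjusted p under 0.05. The lower one was Col2a1 at -1.89 (edgeR adjusted p = 0.316), a value set largely by the 2090 CPM of control replicate 2. The cartilage sums were 2112, 4147 and 2459 CPM in the controls and 2529, 2477 and 2831 CPM in the Lysm-Cre; Ampkα1fl/fl mice. Control replicate 2 alone made them overlap. Acan, which encodes aggrecan, was called higher in edgeR (log2 fold change 0.60, adjusted p = 0.0298), a call that was lost with the replicate block (adjusted p = 0.0634), and DESeq2 called 4 of the 9 higher. All 12 muscle estimates were positive, with 0 called in edgeR or DESeq2 (Des, a muscle filament gene, was nearest at an edgeR adjusted p of 0.364), and the muscle sums overlapped.

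**Figure D4:**
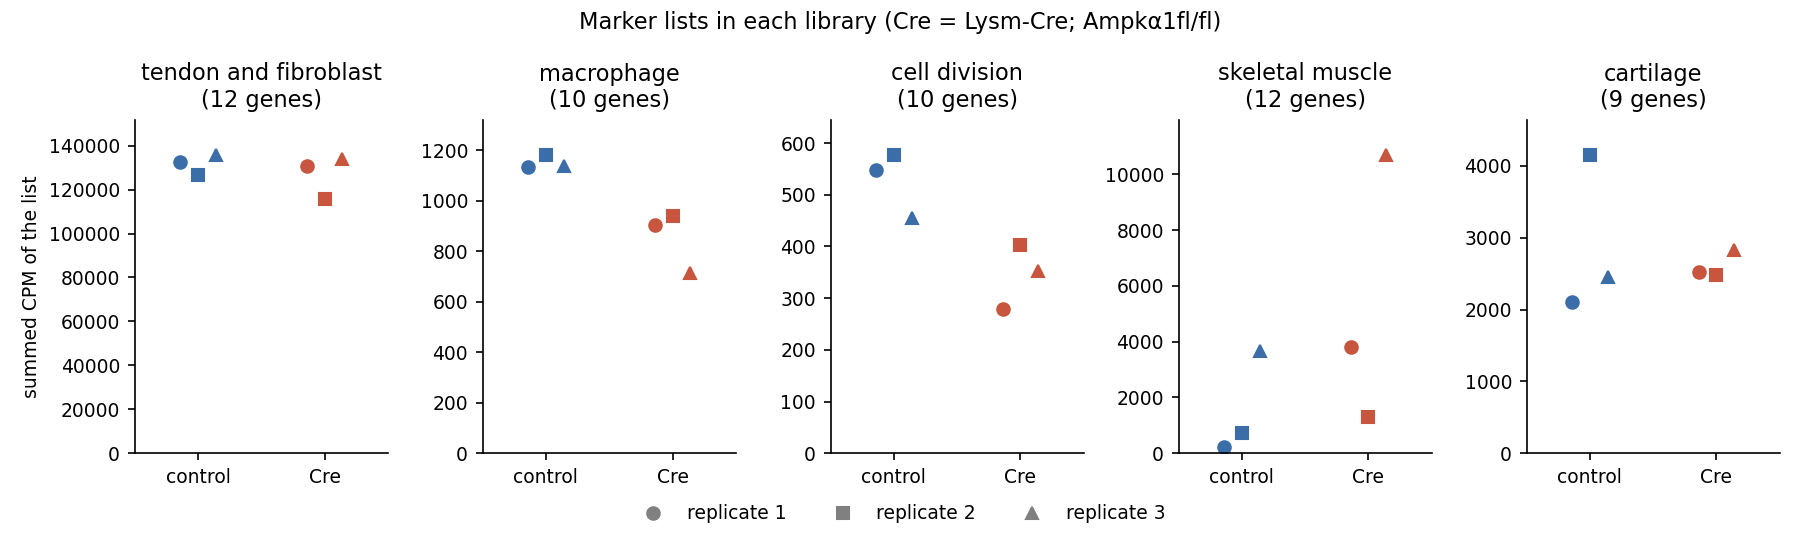
Summed CPM of 5 marker lists in each library (vertical axes from 0), with controls in blue, Lysm-Cre; Ampkα1fl/fl mice (Cre) in red and marker shape giving the replicate number. The macrophage and cell division sums do not overlap between the groups. The tendon and fibroblast, muscle and cartilage sums do, the cartilage ones through control replicate 2 alone. Replicate 3 has the highest muscle sum of its group in each case.

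Genes that act around the members were read from 4 lists. Among all genes tested, 5.97% were higher and 8.55% lower at an unadjusted p under 0.05. In edgeR 0.898% of all genes were called, and in DESeq2 4.68% of those with an adjusted p. The proteases, carriers and inhibitors that release or hold IGFs had 8 of 10 genes tested, 0 called in edgeR in either direction and 1 lower at an unadjusted p under 0.05, with a median log2 fold change of 0.21. That gene was Pappa2, a protease that cuts IGFBP3 and IGFBP5, which had 8.20, 9.34 and 5.43 CPM in the controls and 3.55, 5.95 and 3.19 CPM in the Lysm-Cre; Ampkα1fl/fl mice (log2 fold change -0.86, edgeR adjusted p = 0.256). The estimate of Pappa, which encodes PAPP-A, went the other way (log2 fold change 0.75, edgeR adjusted p = 0.359). Of the 8 estimates 5 were positive and 3 negative. Igfbp1 and Igfbpl1 had at most 6 reads in a library and were not tested.

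Downstream of the receptors, 11 of 13 adaptor genes were tested and 0 were called in edgeR (median log2 fold change 0.10). At an unadjusted p under 0.05, 2 were higher and 0 lower, beside 5.97% and 8.55% of all genes. Irs1, the docking protein that couples the IGF1 and insulin receptors to PI3K, had 72.6, 77.9 and 83.6 CPM in the controls and 105, 93.3 and 103 CPM in the Lysm-Cre; Ampkα1fl/fl mice (log2 fold change 0.36, edgeR adjusted p = 0.0869). The groups did not overlap in Irs1, as in 8.94% of all genes tested in the higher direction. Grb10, an adaptor that restrains these receptors, had a log2 fold change of 0.20 (edgeR adjusted p = 0.177). DESeq2 called both genes higher, with adjusted p of 0.0015 and 0.0163. All 22 genes of the PI3K, AKT, mTOR and FOXO list were tested, with 0 called in edgeR, 2 higher at an unadjusted p under 0.05 and a median log2 fold change of 0.04. They were Foxo3, a transcription factor that AKT keeps out of the nucleus (log2 fold change 0.39, edgeR adjusted p = 0.212, DESeq2 adjusted p = 0.0429), and Pik3r3, a regulatory subunit of PI3K (0.28, edgeR adjusted p = 0.185).

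Among imprinted and fetal growth genes, 10 of 13 were tested and 1 was called higher in edgeR. Mest, expressed from the paternal allele like Igf2, had 2816, 2907 and 2750 CPM in the controls and 3723, 3710 and 3684 CPM in the Lysm-Cre; Ampkα1fl/fl mice. Both groups were narrow, and Mest was 31.2% higher (log2 fold change 0.39 with a standard error of 0.05, edgeR adjusted p = 0.0230, exact permutation p = 0.1). When replicate number entered edgeR as a block its log2 fold change was 0.39 and its adjusted p was 0.0634. The call was also lost without control replicate 1, 2 or 3 and without Lysm-Cre; Ampkα1fl/fl replicate 1 or 3, each of which left 0 called genes in the 4 lists. Among all genes these fits called from 8 to 60, against 128 with every library kept. Peg3, another paternally expressed gene, had a log2 fold change of 0.26 (edgeR adjusted p = 0.086, DESeq2 adjusted p = 5.322e-05). In the opposite direction, Dlk1, which encodes a membrane protein of fetal tissues, had -0.53 (edgeR adjusted p = 0.247, DESeq2 adjusted p = 0.0256), and Plagl1, a transcription factor, had -0.18 (edgeR adjusted p = 0.302). Of the 10 genes tested 8 estimates were positive and 2 negative, with a median log2 fold change of 0.04. H19 and Meg3 were not found among the genes measured, and Phlda2, with at most 3 reads in a library, was not tested.

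**Figure D5:**
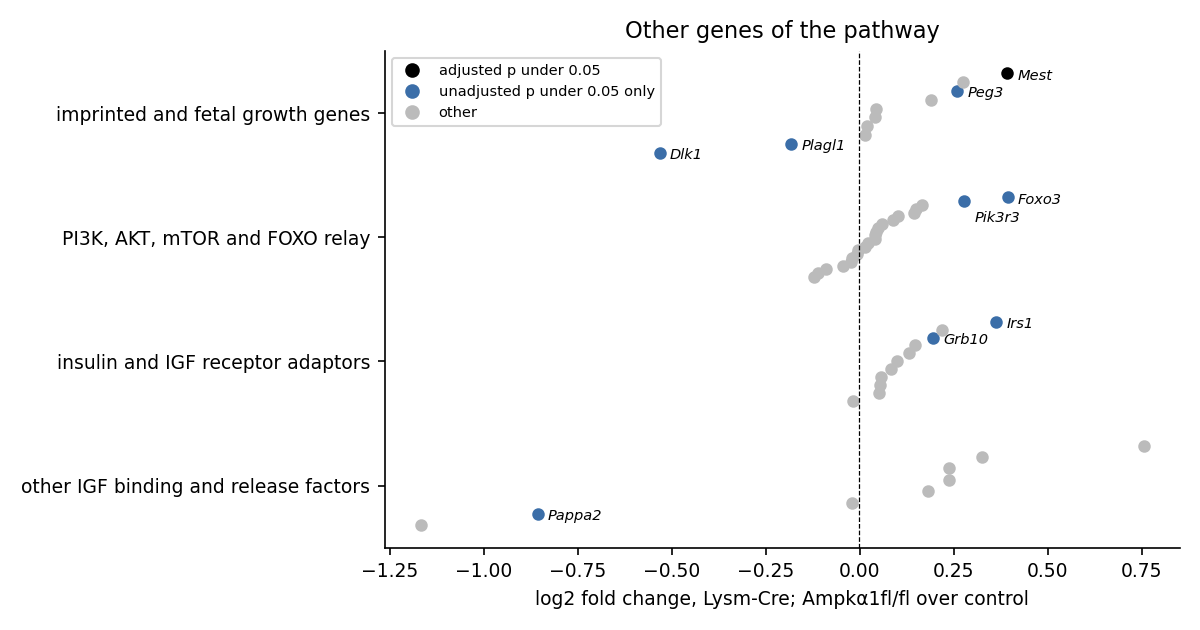
Log2 fold change of the genes of 4 pathway lists (horizontal axis, 1 point per gene tested), coloured black for an adjusted p under 0.05 in edgeR, blue for an unadjusted p under 0.05 only and grey otherwise, with the dashed line at the median of all genes. Mest is the black point at 0.39, and points of the adaptor list lie mostly to the right of the line.

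The genes whose profile over the 6 libraries was most like that of each ligand were found by the root mean square difference of log2 CPM, each gene centred on its own mean, among 9921 genes with a mean of at least 10 CPM. For Igf1 they were Ccdc124 (0.0206), Gpsm2 (0.0218) and Tspo (0.0222), where Igf1 itself varied by 0.134 about its mean. For Igf2 they were Tor2a (0.0143), Sdc4 (0.0185) and Dusp12 (0.0188), where Igf2 varied by 0.109. With 6 libraries and 9921 genes, this likeness is a description of these libraries.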

How the data were processed

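Libraries were made from total RNA and sequenced on the BGISEQ platform. For each RefSeq transcript the authors deposited an estimated count per mouse, which is not normalized, and a TPM value, which they scaled for transcript length and library total. The submitters' processing notes name GRCm38.p6, and the aligner and counting tool are not given in the sources used here. For each gene the estimated counts of its transcripts were added up and rounded. NCBI Gene gave a symbol for 18049 of 18099 genes. Group differences were fitted in R 4.3.3 with edgeR 4.0.16 (filterByExpr, TMM, quasi-likelihood F test, Benjamini-Hochberg, threshold 0.05), with the group as the only term. The scripts were tested on simulated data. Alternatives were DESeq2 1.42.0, other scalings and filters, limma 3.58.1 on log2(TPM + 1), the replicate number as a block, and leaving out each library. Exact permutation tests used log2(CPM + 0.5). The deviations of same-numbered libraries from their group means had correlations across genes of 0.184, 0.118 and 0.31 for replicates 1, 2 and 3. The numbers come from the labels. Libraries of different number were not compared, so whether the numbers mark a pairing was not tested. The members, the lists and the alternatives were chosen with earlier results of these data known. The genes named were the members, Prkaa1, Lyz2, the 3 nearest profiles of each ligand and, from each pathway list, the called genes and up to 4 with the largest change at an unadjusted p under 0.05. Marker lists are given as sums with the gene of smallest adjusted p, and Col2a1 and Pappa were added after their values were seen. Deposited FPKM values, rescaled counts and group averages were not used. Coordinates and upstream sequences are from RefSeq (GRCm38.p6) and transcript starts from GENCODE M21. Precision is limited by 3 mice per group, and at these depths every member had at least 203 reads in each library.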

Additional observations from a re-analysis of the deposited data

How the results depend on the processing

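The sign of the fold change of each of the 10 members was the same in all 13 alternatives, and 119 of the 130 values stayed on their side of the threshold. For Igfbp6 the log2 fold change lay between -0.68 and -0.52 over the alternatives and its adjusted p between 7.144e-08 and 0.194. The number of members called was 1. It was 3 with DESeq2 and 0 in edgeR with upper-quartile scaling (3 at an unadjusted p under 0.05), in limma on log2(TPM + 1) (4 unadjusted) and in edgeR with the replicate number as a block (4 unadjusted), and leaving out 1 library gave from 0 to 3. Igfbp6 with upper-quartile scaling was at an adjusted p of 0.0505. In the 4 pathway lists the 1 call became 6 with DESeq2 and 0 with limma (9 unadjusted) or with the block (13 unadjusted), and leaving out 1 library gave from 0 to 1. Over all genes, 128 were called, with 685 in DESeq2, 68 in limma, 47 with the block, and from 8 to 276 when 1 library was left out. The cause of these differences was not tested. The block changed no call of a member other than Igfbp6. The median log2 fold change of all genes lay between -0.0118 and 0.0048 over the alternatives. The lowest member, Igfbp2, had 203 to 567 reads in a library, and 3 mice per group limit what could pass.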
